A study of Mus musculus with 16 samples.

Results

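The genes described here make and copy DNA: 45 genes of DNA replication and nucleotide supply, chosen by name, of 18194 genes measured in mouse neural crest stem cells. The choice was made with earlier results of these data known, so shares of all genes beside the counts are descriptive. Each gene was read from the probe set that the platform annotation assigned to it alone and that was brightest over all arrays, and all 45 genes had such a probe set. They fall into 12 helicase genes, 9 origin genes, 19 polymerase and fork genes and 5 nucleotide genes. Neural crest stem cells are embryonic cells that can give rise to peripheral glia, neurons and mesenchyme. RNA of primary mouse neural crest cells grown in crest stem cell medium was measured on 16 Affymetrix arrays. There were 4 arrays each of cells primed to glia (Glia), primed to neurons (Autonomic) or primed to mesenchyme (Mesenchymal), and 4 of cells that were not primed (NCSCs). The study asked how expression differs between migratory crest stem cells and cells exposed to instructive growth factors. The labels name neither the factors nor the length of the exposure, and give no genotype or embryonic age. The treatment label reads alike on all 16 samples, so priming is taken from the cell type label and the titles. Since no label states that a group's 4 arrays came from different cultures or animals, the p-values reflect array-to-array scatter that could be technical.

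Before a cell divides, the origin recognition complex marks the sites where copying can begin, and Cdc6 and Cdt1 load the ring of Mcm proteins there. Cdc45 and the GINS complex then turn that ring into the active helicase, behind which primase, polymerases, clamp and ligase copy both strands. Ribonucleotide reductase, thymidylate synthase and thymidine kinase supply the deoxynucleotides, and in cycling cells many of these genes are switched on by E2F factors as cells enter S phase. In RNA from a whole culture, fewer cells in S phase and less RNA per cell cannot be told apart.

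Values are deposited intensities, made with RMA, on the log2 scale, and per-array values are listed in the order of replicates 1 to 4. Levels of different genes are not set against each other. Array medians lay between 3.05 and 3.15. Correlations between arrays over all 45101 probe sets ran from 0.896 to 0.949 within groups and from 0.898 to 0.948 between groups. These ranges overlapped, and whether the groups separate was not tested. A pair of arrays stood apart by marker genes. Autonomic 1 had a mean of 4.97 over 9 crest markers, against 6.94 to 7.19 on the other Autonomic arrays, with Sox10 at 4.30. NCSCs 4 had a mean of 6.25 over 5 neural tube markers, against 2.56 to 3.56 on the other NCSCs arrays, with Pax6 at 9.49 and Sox1 at 7.79. Autonomic 1 also carried Pax6 at 9.54 and Sox1 at 8.69, Autonomic 4 carried Pax6 at 8.86, and Mesenchymal 3 carried Sox1 at 9.41; the last 2 arrays stay in all counts. For comparisons with NCSCs, the number of genes called and the median change are therefore also given without the pair NCSCs 4 and Autonomic 1. This setting was added after the data were seen. Counts of negative changes, of arrays lying apart and of unadjusted p keep both arrays. The defining glial markers S100b, Gfap and Mbp lay between 2.27 and 3.71 on all arrays, while the glial marker Fabp7 ran from 5.07 to 10.45. Of 6 autonomic neuron markers, Phox2a, Th, Dbh and Hand2 lay between 1.49 and 4.92 on all arrays, and Tubb3 and Stmn2 averaged 10.19 and 6.01 in Autonomic arrays, against 9.73 and 5.59 in NCSCs. All 6 had positive changes in Autonomic arrays (median 0.45), and 0 were called. The log2 ratio of 3' to 5' Gapdh control probe sets, a measure of RNA quality, was 2.44 to 3.33 in Glia, 2.53 to 3.10 in Autonomic and 2.66 to 3.13 in Mesenchymal arrays, against 2.20 to 2.58 in NCSCs. The same ratio for actin was -0.24 to -0.0737 in Glia, -0.918 to -0.295 in Autonomic and -0.401 to -0.079 in Mesenchymal arrays. In NCSCs it was -0.701 to -0.395, below all Glia arrays. The part of the actin ratio in the results was not tested. Xist was 2.61 to 5.34 in Glia, 3.15 to 10.6 in Autonomic and 2.68 to 11.2 in Mesenchymal arrays, against 6.39 to 10.5 in NCSCs.

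Promoter sequences are shown for Tk1 and Pola1, which were called lower, and for Mcm7, a helicase gene that was not called. A motif of the E2F factors is present in the printed stretches of Pola1 and Mcm7 and absent from that of Tk1. RefSeq (GRCm38.p6) held windows of 300 bases, 250 before the start and 50 after it, for 37 of the 45 genes; Gins1, Gins2, Gins4, Gmnn, Mcm4, Pole, Prim2 and Rfc2 had no entry. The E2F words searched on both strands were TTTCCCGC, TTTCGCGC, TTTGCCGC and TTTGGCGC. The 250 bases before the start are printed 5' to 3' on the strand of the gene, which is the minus strand for all 3, with an E2F word in capitals. The Tk1 stretch, chr11:117826015-117826264, holds no such word. That of Pola1, chrX:93632156-93632405, holds 1 word that begins 138 bases before the start. That of Mcm7, chr5:138171884-138172133, holds 1 word that begins 165 bases before the start. Its window of 300 bases holds 2, and a second Mcm7 window holds 0. The window with the most E2F words was printed for each gene, so the Mcm7 stretch was chosen by its words.
Tk1: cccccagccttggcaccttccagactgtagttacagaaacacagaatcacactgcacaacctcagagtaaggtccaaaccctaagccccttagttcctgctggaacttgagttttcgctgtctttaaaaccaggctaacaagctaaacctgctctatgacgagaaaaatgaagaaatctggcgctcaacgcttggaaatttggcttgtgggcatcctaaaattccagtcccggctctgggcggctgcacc
Pola1: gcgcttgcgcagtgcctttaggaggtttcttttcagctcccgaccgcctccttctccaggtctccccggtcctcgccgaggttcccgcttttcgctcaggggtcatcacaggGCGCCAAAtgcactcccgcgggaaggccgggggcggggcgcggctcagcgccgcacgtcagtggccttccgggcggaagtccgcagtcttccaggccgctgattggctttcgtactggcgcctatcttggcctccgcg
Mcm7: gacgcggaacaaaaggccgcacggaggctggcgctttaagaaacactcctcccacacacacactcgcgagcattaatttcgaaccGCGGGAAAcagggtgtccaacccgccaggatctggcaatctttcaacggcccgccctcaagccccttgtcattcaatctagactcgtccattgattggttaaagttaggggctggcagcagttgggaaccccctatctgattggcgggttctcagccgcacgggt
An E2F word lay in 14 of the 45 windows of these genes (31.1%), against 2.26% of 32851 windows of all genes. By role, 5 of 9 helicase windows, 4 of 11 origin windows, 5 of 20 polymerase and fork windows and 0 of 5 nucleotide windows held one. The CCAAT word lay in 55.6% of the windows, against 37.4% of all windows, and the GC box word GGGCGG in 71.1%, against 35.7%, both strands searched. A match is a word in a window and not a measured site. Of the 4 genes whose change averaged over the primed groups was positive, Orc3 (0.50) and Gins3 (0.54) hold an E2F word, and Mcm2 (0.09) and Rpa1 (0.02) hold none. These signs depend on the probe set: other probe sets averaged -0.147 and 0.475 for Orc3, -0.531 for Gins3, -0.883 for Mcm2 and -0.805 for Rpa1.

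In Glia arrays 1 of the 45 genes passed the test, and it was lower: Gins2, a subunit of the GINS complex. The test was limma with adjustment over 18194 genes, called at an adjusted p under 0.05, and 0.324% of all genes were called lower and 0.187% higher. A negative change was measured for 41 of 45 genes, beside 50.8% of all genes, and the median change was -0.55, beside -0.01 for all genes. All 4 Glia arrays lay below all 4 NCSCs arrays for 13 of the 45 genes, beside 4.16% of all genes. An unadjusted p under 0.05 with a lower level was found for 17 genes, beside 5.91% of all genes. Without NCSCs 4 and Autonomic 1, 0 of 45 genes were called, and the median change was -0.51.

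In Autonomic arrays 2 of the 45 genes passed, both lower: Tk1, the thymidine kinase of cycling cells, and Gins2. Of all genes, 0.302% were called lower and 0.132% higher. A negative change was measured for 40 genes, beside 49.5% of all genes, with a median of -0.49, beside 0.00 for all genes. All 4 Autonomic arrays lay below all 4 NCSCs arrays for 9 genes, beside 3.24% of all genes, and 15 had an unadjusted p under 0.05 with a lower level, beside 5.51%. Without NCSCs 4 and Autonomic 1, 0 genes were called and the median was -0.52.

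In Mesenchymal arrays 1 of the 45 genes passed, again Gins2 and again lower. It was the only gene called lower of all 18194, which is 0.0055%, and 0.0165% were called higher. A negative change was measured for 34 of 45 genes, beside 50.8% of all genes, with a median of -0.24, beside -0.01. All 4 Mesenchymal arrays lay below all 4 NCSCs arrays for 5 genes, beside 3.29% of all genes, and 6 had an unadjusted p under 0.05 with a lower level, beside 4.56%. Without NCSCs 4 and Autonomic 1, 0 genes were called and the median was -0.24. With cyclic loess the median was -0.079, and with quantile scaling it was -0.112.

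With the 3 primed groups averaged, Gins2, Tk1 and Pola1, the catalytic subunit of the polymerase that begins each new strand, fell. These were 3 of 45 genes, beside 0.324% of all genes called lower and 0.121% called higher. They were also the 3 genes for which all 12 primed arrays lay below all 4 NCSCs arrays, which held for 0.407% of all genes. A negative change was measured for 41 of 45 genes, beside 49% of all genes, 15 were lower at an unadjusted p under 0.05, beside 6.54%, and the median change was -0.39, beside 0.01 for all genes. Without NCSCs 4 and Autonomic 1, only Gins2 remained called (adjusted p = 0.0277), and the median was -0.45. By limma 0 of the 45 genes were called higher in any primed group, and at an unadjusted p under 0.05 only Orc3 was higher, in Mesenchymal arrays (beside 3.14% of all genes) and on average (beside 3.62%). At that threshold 0 were higher in Glia arrays, beside 4%, and 0 in Autonomic arrays, beside 4.29%. Of 42 further probe sets of these genes above the median probe set, 34 had a negative change in Glia, 35 in Autonomic and 31 in Mesenchymal arrays. By mean level, 44 of the 45 genes lay above the median gene, and genes above it shifted down in general. Their medians were -0.11 in Glia, -0.086 in Autonomic, -0.11 in Mesenchymal arrays and -0.1 on average. The 44 genes had medians of -0.54, -0.434, -0.257 and -0.379 in the same order. All these comparisons use the same 4 NCSCs arrays, so their values are not independent of each other.

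**Figure D1:**
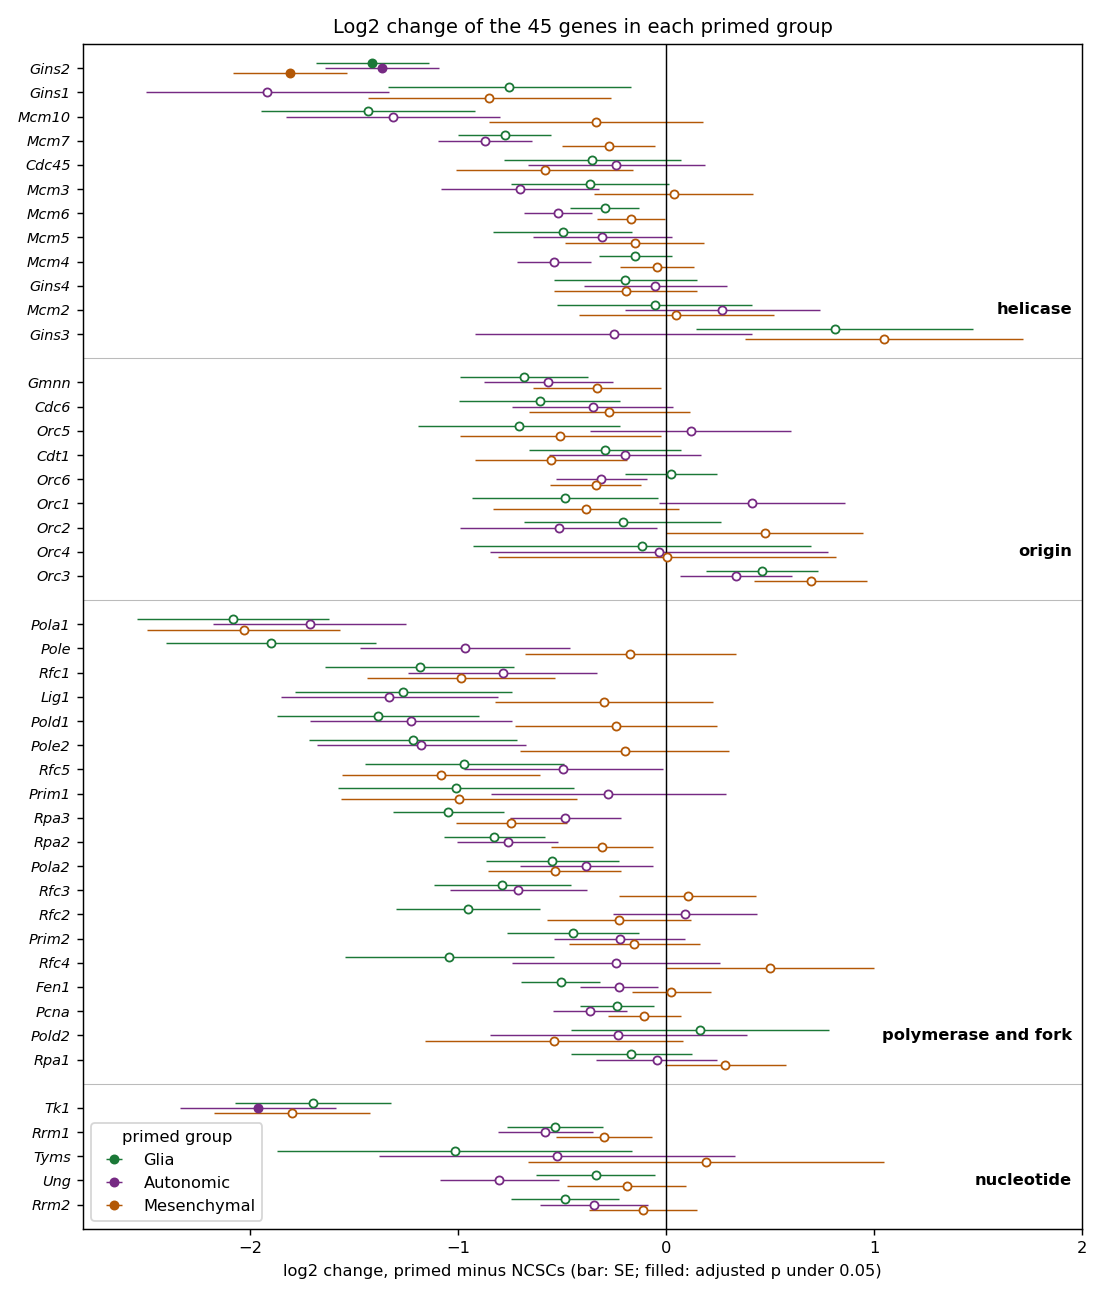
Log2 change of each of the 45 genes in Glia (green), Autonomic (purple) and Mesenchymal (brown) arrays minus NCSCs, with bars of 1 standard error, n = 4 arrays a group, grouped by role; filled points have a limma adjusted p under 0.05. Most points lie left of 0, and the filled ones are Gins2 in all 3 primed groups and Tk1 in Autonomic arrays.

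Among the helicase genes, Gins2 read 7.49, 7.86, 7.16 and 7.83 in Glia arrays. It read 8.12, 7.34, 6.99 and 8.07 in Autonomic arrays and 7.04, 7.02, 7.01 and 7.70 in Mesenchymal arrays. In NCSCs it read 8.87, 8.88, 8.83 and 9.40. Every primed array was below every NCSCs array. Gins2 was 2.66-fold lower in Glia arrays (log2 change -1.41, SE 0.27, adjusted p = 0.0364), 2.58-fold lower in Autonomic arrays (-1.37, SE 0.27, adjusted p = 0.043) and 3.50-fold lower in Mesenchymal arrays (-1.81, SE 0.27, adjusted p = 0.0465). For the mean of the primed groups the change was -1.53 (SE 0.22, adjusted p = 0.0084). Its other probe set changed by -1.15, -1.25 and -1.41 in Glia, Autonomic and Mesenchymal arrays and by -1.27 on average, with an adjusted p of 0.031 over all 45101 probe sets for that average. The call on the average held in 28 of 30 other settings, with adjusted p from 0.00339 to 0.286. It was lost without NCSCs 4 (-1.39, adjusted p = 0.059) and with the Gapdh ratio as a covariate (-1.07, adjusted p = 0.286).

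The single-group calls of Gins2 depended on the settings: they held in 14 of 31 for Glia, 10 of 31 for Autonomic and 6 of 31 for Mesenchymal arrays. Leaving out any NCSCs array ended each of them, with adjusted p from 0.0705 to 0.125 in Glia, from 0.0779 to 0.149 in Autonomic and from 0.0831 to 0.201 in Mesenchymal arrays, while the change stayed between -1.23 and -1.86. The Glia call also ended without any Glia array (adjusted p from 0.0633 to 0.104), Mesenchymal 1 (0.0564) or Mesenchymal 3 (0.0514). The Autonomic call also ended without Glia 1, 2 or 4 (0.0541 to 0.0643), Autonomic 2, 3 or 4 (0.0576 to 0.12) or Mesenchymal 1, 2 or 3 (0.0596 to 0.0633). The Mesenchymal call held only without Autonomic 3 (0.0395) or Mesenchymal 4 (0.0461), among arrays left out singly.

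The other helicase genes did not pass. Mcm7, a subunit of the Mcm ring, read 10.53, 10.86, 9.90 and 10.66 in Glia arrays and 10.71, 10.30, 10.19 and 10.36 in Autonomic arrays. It read 11.29, 10.51, 10.93 and 11.21 in Mesenchymal arrays, and 11.21, 11.32, 11.06 and 11.46 in NCSCs. All Glia and Autonomic arrays lay below all NCSCs arrays, and Mesenchymal arrays overlapped them. Its changes were -0.78 (SE 0.22, adjusted p = 0.191), -0.87 (SE 0.22, adjusted p = 0.131) and -0.28 (SE 0.22, adjusted p = 0.819) in Glia, Autonomic and Mesenchymal arrays, and its 3 other probe sets also had negative changes in every primed group.

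Gins1, which shares the GINS complex with Gins2, read 6.19, 6.98, 7.64 and 7.48 in Glia arrays and 6.49, 7.31, 5.71 and 4.13 in Autonomic arrays. It read 8.01, 6.33, 7.19 and 6.39 in Mesenchymal arrays and 7.86, 7.43, 8.57 and 7.45 in NCSCs. Autonomic arrays alone lay below all NCSCs arrays, with a spread of 1.35 (SD), and the change there was -1.92 (SE 0.58, adjusted p = 0.218). Mcm10, which helps the helicase to start, read 5.18, 4.73, 4.32 and 6.71 in Glia arrays and 6.17, 5.17, 4.06 and 6.01 in Autonomic arrays. It read 6.46, 6.58, 5.79 and 6.49 in Mesenchymal arrays and 6.90, 7.28, 6.23 and 6.25 in NCSCs. Its Autonomic arrays lay below all NCSCs arrays, while Glia 4 and the Mesenchymal arrays overlapped them. Its changes of -1.43 (SE 0.51, adjusted p = 0.326) in Glia and -1.31 (SE 0.51, adjusted p = 0.397) in Autonomic arrays did not pass.

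Gins3, a further GINS subunit, had a higher mean in 2 primed groups. It read 4.67, 6.40, 5.37 and 6.77 in Glia, 6.34, 4.42, 3.89 and 4.32 in Autonomic and 6.16, 6.21, 4.62 and 7.17 in Mesenchymal arrays, against 5.73, 5.24, 3.58 and 5.42 in NCSCs. The groups overlapped, the changes were 0.81, -0.25 and 1.05 with an SE of 0.67, and its dimmer probe set had negative changes in all 3 groups. On the probe sets used, Mcm2, Mcm3, Mcm4, Mcm5 and Mcm6 changed by -0.50 to -0.05 in Glia, by -0.70 to 0.27 in Autonomic and by -0.17 to 0.05 in Mesenchymal arrays. Other probe sets of these genes gave larger changes: one of Mcm2 changed by -1.12, -1.11 and -0.42 and one of Mcm6 by -1.14, -0.79 and -0.17 in Glia, Autonomic and Mesenchymal arrays, so the sign of Mcm2 in Autonomic arrays differed between probe sets. Cdc45, which joins the GINS complex in the helicase, changed by -0.35, -0.24 and -0.58 in Glia, Autonomic and Mesenchymal arrays, and Gins4 by -0.20, -0.05 and -0.20. The other Cdc45 probe set changed by 0.02, 0.05 and 0.145. None of these passed. The median of the 12 helicase genes was -0.36 in Glia, -0.53 in Autonomic and -0.18 in Mesenchymal arrays.

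**Figure D2:**
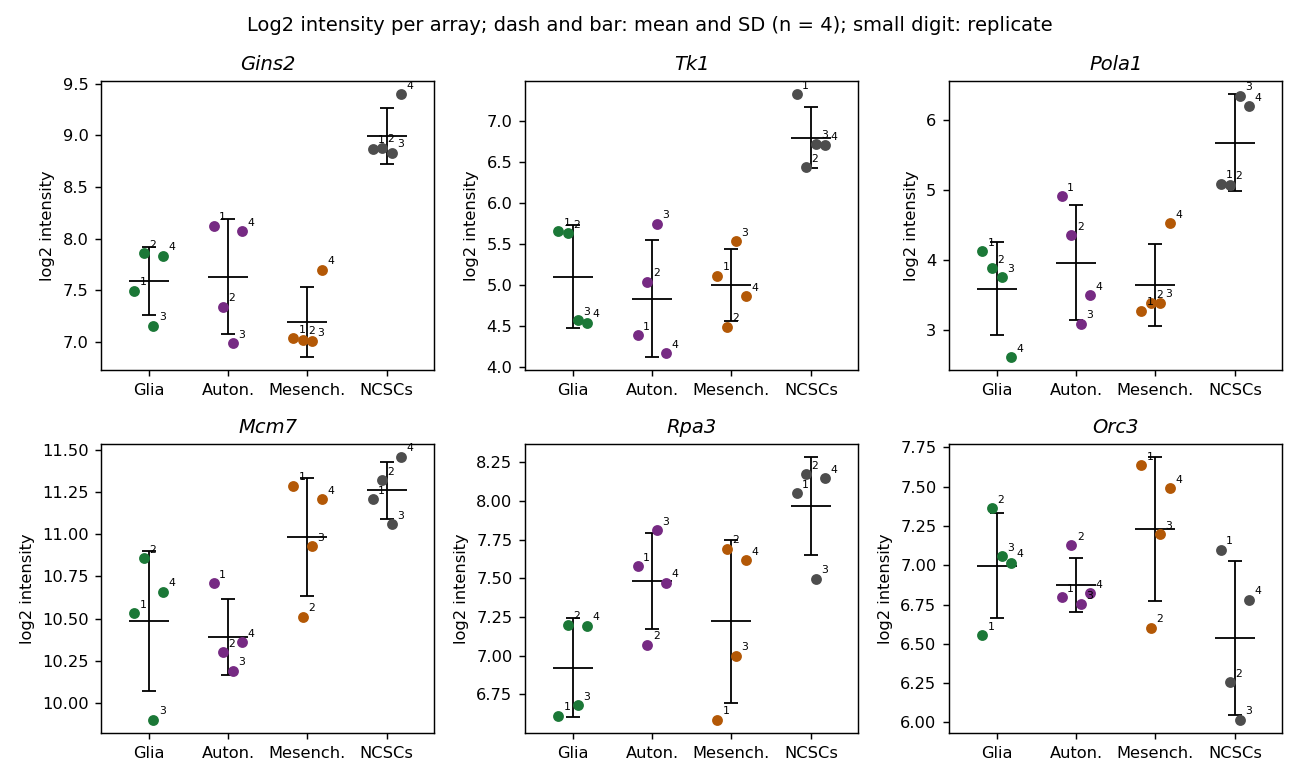
Log2 intensity of Gins2, Tk1, Pola1, Mcm7, Rpa3 and Orc3 on each array (points, numbered by replicate) in Glia, Autonomic, Mesenchymal and NCSCs, with the mean and SD of 4 arrays. For Gins2, Tk1 and Pola1 every primed array lies below every NCSCs array, for Mcm7 and Rpa3 only some primed groups do, and Orc3 has its lowest mean in NCSCs (6.54).

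The origin genes had the median nearest 0 of the 4 roles in Glia and Autonomic arrays (-0.29 and -0.20), and the lowest of the 4 in Mesenchymal arrays (-0.33). None of the 9 passed limma's test in any primed group, and at an unadjusted p under 0.05 only Gmnn was lower, in Glia arrays, and only Orc3 higher, in Mesenchymal arrays. Gmnn, or geminin, holds Cdt1 inactive after origins have fired. It read 7.84, 8.30, 8.96 and 8.30 in Glia arrays, 9.20, 8.02, 7.89 and 8.76 in Autonomic arrays and 8.15, 8.85, 8.90 and 8.90 in Mesenchymal arrays. In NCSCs it read 9.16, 8.88, 8.72 and 9.36. Each primed group overlapped NCSCs, and the changes were -0.68, -0.56 and -0.33 with an SE of 0.31 (adjusted p = 0.485, 0.598 and 0.848 in Glia, Autonomic and Mesenchymal arrays).

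Cdt1, the loader that geminin restrains, read 7.81, 8.45, 7.69 and 8.58 in Glia, 7.90, 8.57, 8.62 and 7.81 in Autonomic and 8.27, 8.30, 7.45 and 7.47 in Mesenchymal arrays. In NCSCs it read 8.31, 7.40, 9.01 and 8.97, the widest spread of the 4 groups (SD 0.75). Its changes were -0.29, -0.20 and -0.55 (SE 0.37). Orc3, a subunit of the origin recognition complex, was the only gene of the 45 with its lowest group mean in NCSCs. It read 6.55, 7.36, 7.06 and 7.02 in Glia, 6.80, 7.13, 6.75 and 6.82 in Autonomic and 7.64, 6.60, 7.20 and 7.49 in Mesenchymal arrays, against 7.10, 6.26, 6.02 and 6.78 in NCSCs. All groups overlapped, and the changes of 0.46, 0.34 and 0.69 (SE 0.27) had adjusted p of 0.624, 0.749 and 0.546. Of the other Orc3 probe sets, one changed by -0.38, -0.00 and -0.06 and one by 0.23, 0.97 and 0.22, so the direction differed between probe sets.

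Orc2 read 7.59, 7.41, 6.31 and 6.90 in Glia, 5.97, 7.65, 7.91 and 5.44 in Autonomic and 7.88, 8.07, 7.31 and 7.68 in Mesenchymal arrays, against 6.89, 7.50, 7.05 and 7.60 in NCSCs. Orc5 read 5.43, 4.14, 3.87 and 3.32 in Glia, 5.78, 4.60, 5.75 and 3.94 in Autonomic and 4.15, 4.30, 4.29 and 4.83 in Mesenchymal arrays, against 5.77, 4.19, 5.01 and 4.62 in NCSCs. Both encode origin recognition subunits, and for both every primed group overlapped NCSCs. The Orc2 probe sets disagree: in Mesenchymal arrays the one used changed by 0.47 and the others by -1.41 and -0.97. Cdc6, which loads the Mcm ring with Cdt1, was the single origin gene whose Glia arrays (6.89 to 7.85) lay below all NCSCs arrays (7.86 to 8.48), with a change of -0.61 (SE 0.39, adjusted p = 0.669). Orc1, Orc4 and Orc6 changed by -0.48 to 0.41 over the 3 primed groups, and none passed.

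The polymerase and fork genes had the lowest median of the 4 roles in Glia arrays, -0.97, against -0.49 in Autonomic and -0.24 in Mesenchymal arrays. Glia arrays lay below all NCSCs arrays for 8 of the 19 genes (beside 4.16% of all genes), Autonomic arrays for 2 (beside 3.24%) and Mesenchymal arrays for 3 (beside 3.29%). Pola1 read 4.12, 3.88, 3.75 and 2.62 in Glia, 4.91, 4.35, 3.09 and 3.49 in Autonomic and 3.28, 3.38, 3.39 and 4.53 in Mesenchymal arrays. In NCSCs it read 5.09, 5.07, 6.34 and 6.20, above every primed array. The changes were -2.08 in Glia (SE 0.46, adjusted p = 0.0706), -1.71 in Autonomic (SE 0.46, adjusted p = 0.155) and -2.03 in Mesenchymal arrays (SE 0.46, adjusted p = 0.222), and none of these passed. Averaged over the primed groups it was 3.84-fold lower (-1.94, SE 0.38, adjusted p = 0.0428). That size depends on the processing: it was -1.18 with 16 added before log2, -0.78 as the median over its probe sets and -2.42 with the Gapdh ratio as a covariate.

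The Pola1 call on the average was the least stable of the 3, held in 9 of 30 other settings with adjusted p from 0.0166 to 0.202. It was lost without any single NCSCs array (adjusted p from 0.0704 to 0.202) and without 9 of the 12 primed arrays (adjusted p from 0.0523 to 0.0723). Pola1 lies on the X chromosome, and with the Xist level as a covariate its change was -1.97 (adjusted p = 0.093). Its other probe set, at a mean of 2.04 and so below the array medians, had changes of 0.26, 0.34 and 0.58 in Glia, Autonomic and Mesenchymal arrays.

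Pole, the catalytic subunit of the leading-strand polymerase, read 4.94, 4.14, 4.69 and 2.47 in Glia arrays and 5.55, 5.46, 5.35 and 3.63 in Autonomic arrays. It read 5.88, 5.55, 5.71 and 6.02 in Mesenchymal arrays and 5.48, 6.25, 5.65 and 6.47 in NCSCs. Only the Glia arrays lay below all NCSCs arrays, with a change of -1.90 (SE 0.51, adjusted p = 0.144), and the Mesenchymal change was -0.17. Rpa3, a subunit of the protein that coats single strands, read 6.61, 7.20, 6.68 and 7.20 in Glia arrays and 7.58, 7.07, 7.81 and 7.47 in Autonomic arrays. It read 6.59, 7.69, 7.0 and 7.62 in Mesenchymal arrays and 8.05, 8.18, 7.50 and 8.15 in NCSCs. Glia arrays again lay below all NCSCs arrays, and the changes were -1.05 (adjusted p = 0.119), -0.49 (adjusted p = 0.603) and -0.74 (adjusted p = 0.532) with an SE of 0.27. Rpa2, its partner, changed by -0.82 in Glia and -0.76 in Autonomic arrays with ranges apart in both (adjusted p = 0.202 and 0.252), and Rpa1 changed by -0.17, -0.04 and 0.29 in Glia, Autonomic and Mesenchymal arrays. The other Rpa1 probe set, at a mean of 7.18, changed by -0.71, -1.26 and -0.44, so the Rpa1 probe sets disagree.

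Rpa1 read 8.49, 9.0, 8.10 and 9.36 in Glia, 8.44, 8.67, 9.39 and 8.95 in Autonomic and 8.84, 9.36, 9.65 and 8.91 in Mesenchymal arrays, against 8.89, 8.94, 8.55 and 9.23 in NCSCs, and all groups overlapped. Rfc5, a subunit of the clamp loader, read 5.88, 6.47, 5.47 and 6.41 in Glia, 6.17, 6.34, 5.83 and 7.79 in Autonomic and 6.75, 4.49, 6.10 and 6.43 in Mesenchymal arrays, against 6.99, 6.79, 6.84 and 7.48 in NCSCs. Its Glia and Mesenchymal arrays lay below all NCSCs arrays, with changes of -0.97 and -1.08 (SE 0.48, adjusted p = 0.529 and 0.618). Lig1, the ligase that joins new fragments, read 8.30, 9.58, 9.18 and 8.15 in Glia and 10.26, 8.61, 8.94 and 7.13 in Autonomic arrays. It read 9.81, 10.39, 9.16 and 9.69 in Mesenchymal arrays and 10.20, 9.54, 10.17 and 10.34 in NCSCs. Autonomic arrays spread over more than any other group for Lig1 (SD 1.29), with Autonomic 1 inside the NCSCs range, and the change there was -1.33 (SE 0.52, adjusted p = 0.399).

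The rest of the polymerase and fork genes did not pass either. Pold1 and Pole2, polymerase subunits, changed by -1.39 and -1.22 in Glia, by -1.23 and -1.18 in Autonomic and by -0.24 and -0.20 in Mesenchymal arrays. Prim1, the primase catalytic subunit, changed by -0.99 in Mesenchymal arrays, which all lay below NCSCs (6.14 to 6.82, against 7.34 to 7.67), with an adjusted p of 0.726. Pcna, the sliding clamp, changed by -0.24, -0.36 and -0.10 in Glia, Autonomic and Mesenchymal arrays. Fen1, which trims Okazaki fragments, changed by -0.51, -0.23 and 0.03, and its Glia arrays (10.21 to 10.95) lay below all NCSCs arrays (11.12 to 11.33; adjusted p = 0.355). Rfc1, Rfc2, Rfc3 and Rfc4 ran from -1.18 to -0.79 in Glia, from -0.79 to 0.09 in Autonomic and from -0.99 to 0.50 in Mesenchymal arrays. Pola2, Prim2 and Pold2 ran from -0.55 to 0.16 over the 3 primed groups. Another Prim2 probe set, at a mean of 4.185, changed by 0.55, 2.13 and 1.29 in Glia, Autonomic and Mesenchymal arrays. The one used changed by -0.45, -0.22 and -0.15, so the Prim2 probe sets disagree, and neither passed.

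**Figure D3:**
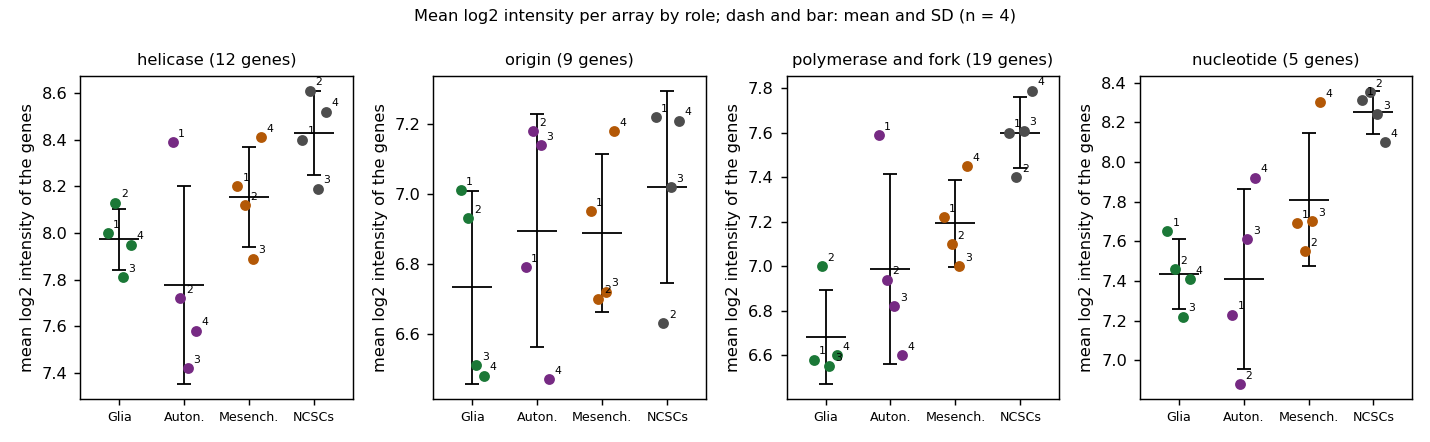
Mean log2 intensity of the helicase, origin, polymerase and fork, and nucleotide genes on each array (points, numbered by replicate) in Glia, Autonomic, Mesenchymal and NCSCs, with the mean and SD of 4 arrays. Glia arrays of the polymerase and fork genes (6.55 to 7.0) lie below NCSCs (7.40 to 7.79), Autonomic 1 lies among NCSCs for these and the helicase genes, and the origin genes overlap in all groups.

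The genes of each role were also averaged on each array. For polymerase and fork genes the array mean was 6.55 to 7.0 in Glia, 6.60 to 7.59 in Autonomic and 7.0 to 7.45 in Mesenchymal arrays, against 7.40 to 7.79 in NCSCs. For helicase genes it was 7.81 to 8.13, 7.42 to 8.39 and 7.89 to 8.41, against 8.19 to 8.61 in NCSCs. Glia arrays thus lay below NCSCs in both roles, while Autonomic 1 and Mesenchymal 4 reached into the NCSCs range in both, and Mesenchymal 1 did so for helicase genes. For nucleotide genes the mean was 7.22 to 7.65, 6.88 to 7.92 and 7.55 to 8.30, against 8.10 to 8.35 in NCSCs, and only Mesenchymal 4 reached that range. For origin genes all groups overlapped, at 6.48 to 7.01, 6.47 to 7.18 and 6.70 to 7.18 in Glia, Autonomic and Mesenchymal arrays, against 6.63 to 7.22 in NCSCs.

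Of the 5 nucleotide genes, Tk1 carried the clearest difference. It read 5.66, 5.63, 4.58 and 4.55 in Glia arrays, 4.39, 5.04, 5.75 and 4.17 in Autonomic arrays and 5.12, 4.49, 5.54 and 4.86 in Mesenchymal arrays. In NCSCs it read 7.33, 6.44, 6.72 and 6.71, above every primed array. Tk1 fell in Autonomic arrays, where it was 3.89-fold lower (log2 change -1.96, SE 0.37, adjusted p = 0.0333). Its changes of -1.70 in Glia (SE 0.37, adjusted p = 0.0668) and -1.80 in Mesenchymal arrays (SE 0.37, adjusted p = 0.143) did not pass, and no difference between the primed groups passed. Averaged over primed groups it was 3.52-fold lower (-1.82, SE 0.31, adjusted p = 0.0227).

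The Autonomic call of Tk1 held in 18 of 31 other settings (adjusted p from 0.0215 to 0.135) and that on the average in 23 of 30 (from 0.00892 to 0.188). Leaving out any NCSCs array ended both, with adjusted p of 0.0688 to 0.103 in Autonomic arrays and 0.0504 to 0.103 for the average. The Autonomic call also ended without Autonomic 2 (adjusted p = 0.0708), Autonomic 4 (adjusted p = 0.109) or Mesenchymal 1 (adjusted p = 0.0503). With the Gapdh ratio as a covariate neither call held (-2.11, adjusted p = 0.135 in Autonomic arrays and -1.99, adjusted p = 0.188 on average), nor with the Xist level (adjusted p = 0.0528 and 0.0725) or without the pair NCSCs 4 and Autonomic 1 (0.101 and 0.0637). The Autonomic call was also lost with the replicate block (0.0563), trend and robust (0.0546) and only the groups compared (0.131).

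Rrm1, the large subunit of ribonucleotide reductase, read 8.99, 9.38, 9.10 and 8.79 in Glia, 9.10, 9.17, 9.15 and 8.65 in Autonomic and 9.30, 8.67, 9.32 and 9.90 in Mesenchymal arrays. In NCSCs it read 9.38, 9.58, 9.65 and 9.79. Autonomic arrays all lay below NCSCs, and the changes were -0.53, -0.58 and -0.30 with an SE of 0.23 (adjusted p = 0.449, 0.405 and 0.806 in Glia, Autonomic and Mesenchymal arrays). Rrm2, its S-phase partner, read 9.83, 10.28, 10.46 and 10.49 in Glia, 10.86, 9.65, 10.42 and 10.70 in Autonomic and 10.65, 11.02, 10.18 and 10.72 in Mesenchymal arrays, against 10.56, 10.71, 10.75 and 11 in NCSCs. Its Glia arrays lay below all NCSCs arrays by a narrow gap, and the change there was -0.49 (SE 0.26, adjusted p = 0.576).

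Tyms, thymidylate synthase, was dim and scattered. It read 4.33, 2.54, 2.31 and 3.26 in Glia, 2.65, 2.09, 2.96 and 6.71 in Autonomic and 3.48, 3.62, 4.30 and 5.88 in Mesenchymal arrays, against 4.14, 5.04, 3.78 and 3.55 in NCSCs. Every primed group overlapped NCSCs, and its changes of -1.02, -0.52 and 0.19 had an SE of 0.85. Ung, which removes uracil from DNA, read 9.42, 9.49, 9.65 and 9.95 in Glia, 9.14, 8.43, 9.74 and 9.35 in Autonomic and 9.87, 9.93, 9.15 and 10.15 in Mesenchymal arrays, against 10.17, 9.99, 10.27 and 9.44 in NCSCs. All groups overlapped, and its largest change was -0.80 in Autonomic arrays (SE 0.29, adjusted p = 0.33).

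Counted array by array, most primed arrays had many of the 45 genes below all 4 NCSCs arrays. On Glia arrays 28, 25, 29 and 31 genes did (55.6% to 68.9%), beside 23.3% to 26.0% of all genes. On Autonomic arrays 18, 27, 29 and 28 did (40.0% to 64.4%), beside 22.8% to 25.7%. On Mesenchymal arrays 16, 18, 26 and 7 did (15.6% to 57.8%), beside 21.7% to 24.8%. Glia arrays were close to each other, Autonomic 1 had the fewest of its group, and Mesenchymal 4, with 7 genes (15.6%) beside 21.7% of all genes, showed no excess.

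**Figure D4:**
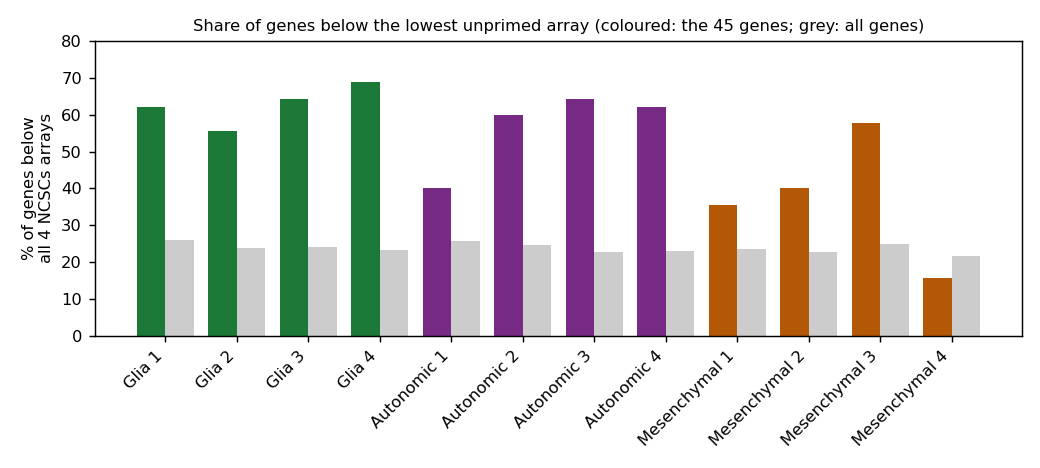
Percentage of the 45 genes (coloured bars) and of all 18194 genes (grey bars) whose level on a primed array was below all 4 NCSCs arrays, for each Glia, Autonomic and Mesenchymal array. Coloured bars exceed grey ones on 11 of 12 arrays, from 35.6% to 68.9%, and on Mesenchymal 4 the value is 15.6% beside 21.7%.

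The primed groups were also set against each other, and 0 of the 45 genes were called by limma in any of these comparisons. Between Glia and Autonomic arrays 0.0055% of all genes were called lower and 0.0055% higher, 30 of the 45 genes had a negative change, beside 51.4% of all genes, and the median was -0.12. At an unadjusted p under 0.05 Rfc2 was lower in Glia (-1.04, adjusted p = 0.646), beside 3.39% of all genes, and Mcm4 higher (0.39, adjusted p = 0.79), beside 2.85%. Arrays lay apart and lower in Glia for 0 of the 45 genes, beside 1.6% of all genes. Between Glia and Mesenchymal arrays the median was -0.23, with 37 negative changes, beside 50.1% of all genes. There 6 genes were lower in Glia at an unadjusted p under 0.05, beside 3.66% of all genes, and 0 higher, beside 3.4%. Arrays lay apart for Rfc3, Pole and Fen1, all lower in Glia, beside 2.46% of all genes. Pole differed most among them, by -1.73 (SE 0.51, adjusted p = 0.32), and 0.154% of all genes were called lower and 0.0715% higher. Between Autonomic and Mesenchymal arrays the median was -0.23, with 29 negative changes, beside 48.8% of all genes, and 0.209% of all genes were called lower and 0.137% higher. There 4 genes (Mcm4, Mcm6, Mcm7 and Rfc3) were lower in Autonomic at an unadjusted p under 0.05, beside 3.88% of all genes, and 0 higher, beside 4.35%, and the arrays of Mcm4 and Pole lay apart, beside 2.08%. Both medians against Mesenchymal arrays turned positive when arrays were scaled on housekeeping genes (0.11 for Glia and 0.03 for Autonomic), but that scaling moved the median of all genes by as much (to 0.34 and 0.27), so relative to all genes the 45 genes stayed lower. That between Glia and Autonomic arrays was 0.07 without Autonomic 1.

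Other genes of the pathway were counted from 4 lists. Of 20 measured genes of G1/S control, 0 passed in any primed group, with medians of -0.35, -0.46 and -0.32 in Glia, Autonomic and Mesenchymal arrays. E2f8, a repressor of the E2F family, changed by -1.54 in Glia (SE 0.55), E2f1, an activator of that family, by -1.41 in Autonomic (SE 0.52) and Cdk2, the kinase that drives S phase, by -1.33 in Mesenchymal arrays (SE 0.42). The highest changes in that list were Cdc25a in Glia (0.65), Rbl1 in Autonomic (1.90, SE 0.77) and E2f7 in Mesenchymal arrays (0.94), and none of the 6 passed.

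Of 28 further replication factors, 1 passed: Topbp1, which activates the replication checkpoint and helps origins fire, was lower in Autonomic arrays (log2 change -0.97, SE 0.19, adjusted p = 0.036). It read 7.81, 7.40, 7.27 and 7.70 there, against 8.43, 8.45, 8.41 and 8.78 in NCSCs, with no overlap, and 0.302% of all genes were called lower there. In settings added for Topbp1 after the data were seen, the call held in 9 of 31, with changes from -1.06 to -0.40 and adjusted p from 0.0207 to 0.654. It ended without any NCSCs array (0.0704 to 0.13), Autonomic 2, 3 or 4 (0.0754 to 0.119), Glia 1 or 2 (0.0517 and 0.0541) or Mesenchymal 1, 2 or 4 (0.0516 to 0.0528), and with the Gapdh ratio as a covariate (-0.70, adjusted p = 0.269). As the median over its probe sets the change was -0.40 (adjusted p = 0.654). The list medians were -0.56 in Glia, -0.56 in Autonomic and -0.25 in Mesenchymal arrays. At the ends of the list, Atad5, which unloads the clamp, changed by -1.58 and Pold4 by 0.74 in Glia arrays. Mcm9, an Mcm relative, changed by -1.59 in Autonomic and -1.31 in Mesenchymal arrays, while Pole3 changed by 0.71 in Autonomic and Pole4 by 0.39 in Mesenchymal arrays.

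Of 23 further nucleotide supply genes 0 passed, with medians of -0.29, -0.30 and -0.13 in Glia, Autonomic and Mesenchymal arrays. Dut, which keeps uracil out of DNA, changed by -1.24 in Autonomic arrays (SE 0.32, adjusted p = 0.13), and Atic, of purine synthesis, by -1.16 in Mesenchymal arrays (SE 0.29, adjusted p = 0.296). Samhd1, which breaks down deoxynucleotides, changed by -0.73 in Glia arrays. Its mean was 6.55 in Glia, 6.14 in Autonomic and 6.19 in Mesenchymal arrays, against 7.27 in NCSCs. Rrm2b, the reductase subunit used outside S phase, changed by 1.15 in Glia (SE 0.48, adjusted p = 0.425) and 0.53 in Mesenchymal arrays, and Mthfd1 by 0.73 in Autonomic arrays. Of 11 mitosis genes 0 passed, with medians of -0.54, -0.29 and -0.17. Kif11, a spindle motor, changed by -1.06 in Glia, Bub1, a spindle checkpoint kinase, by -1.05 in Autonomic and Cdk1, the mitotic kinase, by -0.54 in Mesenchymal arrays. At the upper end of that list Aurkb changed by -0.09 in Glia, Plk1 by 0.36 in Autonomic and Aurka by 0.48 in Mesenchymal arrays.

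Marker levels and other array measures are set beside these genes, and not all of them differed with priming. The mesenchyme and smooth muscle markers averaged 6.54 to 6.99 in Glia, 5.66 to 7.42 in Autonomic and 5.67 to 7.16 in Mesenchymal arrays, against 4.40 to 6.25 in NCSCs. Of these 7, 1 was called higher in Glia arrays, beside 0.187% of all genes. In Autonomic and Mesenchymal arrays 0 were, beside 0.132% and 0.0165%. Their median change was 1.14 in Glia, 1.66 in Autonomic and 1.02 in Mesenchymal arrays, so it was lowest in cells primed to mesenchyme. The 9 crest markers averaged 6.92 to 7.37 in Glia, 4.97 to 7.19 in Autonomic and 7.27 to 7.73 in Mesenchymal arrays. In NCSCs their range was 6.42 to 7.54. A negative change was measured for 3 of the 9 in Glia, 8 in Autonomic and 3 in Mesenchymal arrays. Of all genes these shares were 50.8%, 49.5% and 50.8%. By limma 1 of the 9, the neurotrophin receptor Ngfr, was called lower in Glia and in Autonomic arrays, beside 0.324% and 0.302% of all genes. It averaged 7.20 in Glia, 6.32 in Autonomic and 9.39 in Mesenchymal arrays, against 9.07 in NCSCs (adjusted p = 0.0479, 0.00554 and 0.891). The neural tube markers averaged 1.64 to 3.32, 2.25 to 5.12 and 2.57 to 4.31, against 2.56 to 6.25 in NCSCs, and 0 of 5 were called. The mean of the 45 genes was 6.95 to 7.34 in Glia, 6.98 to 7.61 in Autonomic and 7.26 to 7.75 in Mesenchymal arrays, against 7.67 to 7.90 in NCSCs. With the Gapdh ratio as a covariate the medians were -0.53, -0.50 and -0.22, and with the Xist level -0.74, -0.49 and -0.26, in Glia, Autonomic and Mesenchymal arrays. The Gapdh ratio averaged 2.95, 2.86 and 2.96 in these groups, against 2.35 in NCSCs. Xist was lower on every Glia array than on any NCSCs array. Both measures thus differ in part with priming, so fits with these covariates cannot fully separate them from priming. The part of the marker levels in the result was not tested.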

How the data were processed

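RNA of 16 samples was measured on Affymetrix arrays. The deposited intensity values were made with RMA, per the submitters' processing notes, its version not given. The values ran from 1.487 to 31600 and were read as linear, from the values themselves, although log2 values had been planned for, so log2 was taken with no offset. Of 45101 probe sets, 34958 had 1 gene symbol, 932 several and 9211 were unlisted; 99.4% of symbols matched RefSeq by Entrez ID. Each of 18194 genes was read from its brightest probe set. Group means were estimated from the 16 arrays together with limma 3.58.1 in R 4.3.3, two-sided, with Benjamini-Hochberg adjustment over all genes, called at 0.05, and checked on simulated data. The genes, their lists and roles were chosen with earlier results of these data known. Given with every array value were genes called in any comparison and, in each role, the 2 with the largest absolute change in each primed group, the 1 with the highest mean change, and in each primed group the 3 with the smallest adjusted p that did not pass. The number of arrays limits precision; scanner files were not used here. Normalization, filters, probe set choice, covariates and arrays left out were varied.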

Additional observations from a re-analysis of the deposited data

Results flagged for a closer look

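Among 104 groups of 4 arrays examined, 8 held an array whose gap to the nearest other array exceeded Dixon's critical share of the group's range, where chance gives about 5%. Gins2 was highest on Mesenchymal 4, at 7.70 against 7.01 to 7.04 on the others, and on NCSCs 4, at 9.40 against 8.83 to 8.88. Pola1 was also highest on Mesenchymal 4, at 4.53 against 3.28 to 3.39. Mcm10 was lowest on Mesenchymal 3, at 5.79 against 6.46 to 6.58, and Gmnn on Mesenchymal 1, at 8.15 against 8.85 to 8.90. Pole and Rrm1 were both lowest on Autonomic 4, at 3.63 against 5.35 to 5.55 and at 8.65 against 9.10 to 9.17. The mean of the polymerase and fork genes was highest on Glia 2, at 7.0 against 6.55 to 6.60.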

How the results depend on the processing

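Called genes among the 45 numbered 1 in Glia, 2 in Autonomic, 1 in Mesenchymal arrays and 3 for the mean of the primed groups. In Glia arrays 0 were called with cyclic loess, quantile or housekeeping scaling, only the groups compared, the Xist level as covariate or without the pair NCSCs 4 and Autonomic 1; 2 with 16 added before log2; and 3 with genes above the median gene or array weights. In Autonomic arrays 1 was called with the replicate block, cyclic loess, quantile or housekeeping scaling or every probe set fitted, and 0 with trend and robust, only the groups compared, either covariate or without the pair. In Mesenchymal arrays 0 were called under those 3 scalings, array medians, 16 added, the median over probe sets, trend and robust, only the groups compared, either covariate, without the pair or with every probe set fitted. For the mean, 0 were called with the Gapdh ratio as covariate, 1 with Xist and 1 without the pair. Leaving out 1 array gave 0 to 2, 0 to 2, 0 to 1 and 0 to 3 calls, and 0 between primed groups. Medians then ran from -0.66 to -0.512 in Glia, -0.567 to -0.354 in Autonomic, -0.327 to -0.164 in Mesenchymal arrays and -0.461 to -0.351 for the mean. Between primed groups they ran from -0.218 to 0.074 (Glia and Autonomic), -0.356 to -0.135 (Glia and Mesenchymal) and -0.308 to -0.196 (Autonomic and Mesenchymal). Housekeeping scaling, which moved the median of all genes to 0.29 in Glia, 0.22 in Autonomic and -0.05 in Mesenchymal arrays, and to 0.34 and 0.27 for Glia and Autonomic against Mesenchymal, gave -0.247 in Glia and -0.267 in Autonomic arrays, and 0.11 and 0.0277 for Glia and Autonomic against Mesenchymal. Leaving out cross-matching probe sets gave -0.753 in Glia arrays, and Xist -0.448 for Glia against Mesenchymal. Cyclic loess gave medians of -0.44 in Glia, -0.336 in Autonomic and -0.079 in Mesenchymal arrays. Quantile scaling gave -0.455, -0.387 and -0.112 in the same order. Of all genes, 59 were called lower and 34 higher in Glia, against 34 and 18 with the replicate block; for the mean, 59 and 22 against 27 and 12. With the Gapdh ratio these were 18 and 12 in Glia, and 2 and 4 for the mean. After group means were subtracted, same-numbered arrays of different groups correlated from -0.0671 to 0.0641. Of the 16 arrays, 2 correlated best with an array of their own number. Arrays thus did not deviate together by number, but whether the numbers pair the samples cannot be told, since no label states what a number marks. The cause of these shifts was not tested.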
